A study of Homo sapiens with 14 samples.

Results

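The genes described here are 41 enzymes and transporters of amino acid metabolism, chosen by symbol. They were chosen with earlier results of these data known, so their counts beside shares of all genes describe and do not test. They cover synthesis, breakdown, the one-carbon cycle and uptake, and they were grouped by the amino acid they handle. Of the 41, 38 had a probe set that carried their symbol alone, out of 18417 genes on the arrays, and 36 of these passed a filter on dim genes that kept 11050 genes. GPT2 and GLUD1 were not listed in the array annotation used here, and CBS was listed only together with a second symbol, so these were not measured. ALDH1L2 and BCAT1 were measured but lay below the filter, and their values are given apart.

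RNA was measured on 14 arrays, 1 per condition, in a human gastric carcinoma line that forms polarized epithelial colonies. The sample labels name the line MKN28 and the study names it MKN74. In the parental line, 1 untreated array of day 2 was set against 1 and 2 days in 1% oxygen and against 1 and 2 days of 10 ng/ml TGFβ1. The Snai1ER line carries a transgene that joins the transcription factor Snai1 to an estrogen receptor, which 4-hydroxytamoxifen (4-OHT) switches on. Its arrays are an untreated one of day 4 and 4-OHT ones (20 ng/ml) of days 2 and 4. The 6 treated conditions were all measured again with knockdown of ANGPTL4, a secreted protein of lipid metabolism, and the untreated arrays had no knockdown partner. The study describes an shRNA that doxycycline switches on for the Snai1ER line, and an siRNA for parental cells. The labels of the parental arrays do not say how the knockdown was done. The titles and source names of the Snai1ER arrays do not say it either. All 3 treatments were used as models of epithelial-mesenchymal transition, in which epithelial cells lose their contacts and become motile.

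Cells make serine from a glycolytic intermediate, and serine then feeds glycine and the folate-bound one-carbon units that nucleotides and methylation need. Asparagine, aspartate, proline and arginine are made from glutamate and its relatives, and the urea cycle enzymes connect aspartate to arginine and polyamines. When amino acids run short, the transcription factor ATF4 is translated and raises many of these enzymes and transporters through a promoter motif, the C/EBP-ATF response element.

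That motif was looked for in the promoters of the members, taken from RefSeq on GRCh38.p14 as 300 bases around each annotated start. Of the 41 members, 34 had such a sequence. Its core, written TGATGNAA and searched on both strands, was found in 9 of them (26.5%), against 4.46% of 27305 genes. Some genes have several starts, and counted by sequence it was in 11 of 58 (19.0%), against 3.62% of 35116. The form TGATGCAA, which the first search also finds, was present in 5 of the 34 (14.7%), against 1.08% of all genes. The members with the core were SLC1A4, MTHFD1L, ASNS, GOT1, SLC3A2, BCAT1, SLC38A1, SLC7A1 and SLC1A5. A match describes letters and does not show that a factor binds there. Of the 8 with the core that passed the filter, 5 were at least 1.5-fold higher than untreated on day 4 of 4-OHT, and of all 36 members 20 were. The 36 include PSPH, SHMT2, PYCR1, BCAT2 and SLC7A11, which had no promoter sequence to search. The stretches below show the core in 4 of the 5 (in SLC3A2, the fifth, it lies past the start) and in MTHFD1L, which differed by 0.03 on that day. Each is on the strand of its gene, with the motif in capitals. GOT1 and SLC1A4 carry it on the other strand, so that it reads reversed and complemented.
ASNS (chr7:97872433-97872512, minus strand): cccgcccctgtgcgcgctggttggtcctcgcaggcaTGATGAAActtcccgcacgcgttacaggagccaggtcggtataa
GOT1 (chr10:99430779-99430858, minus strand): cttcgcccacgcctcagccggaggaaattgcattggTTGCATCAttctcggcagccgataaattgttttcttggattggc
SLC1A4 (chr2:64989356-64989408, plus strand): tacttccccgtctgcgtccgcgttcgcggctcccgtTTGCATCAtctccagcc
SLC1A5 (chr19:46784868-46784947, minus strand): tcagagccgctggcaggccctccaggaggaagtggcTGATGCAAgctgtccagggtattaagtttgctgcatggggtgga
MTHFD1L (chr6:150866321-150866400, plus strand): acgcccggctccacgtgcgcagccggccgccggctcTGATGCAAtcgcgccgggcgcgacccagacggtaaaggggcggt

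All levels are log2 expression values as deposited, and a difference of 1 is a doubling. With 1 array per condition no treatment could be tested, so a gene was said to rise or fall when both of its time points lay 1.5-fold or more above, or below, untreated. The untreated arrays are of the later day, so the earlier time points had none of their own day. Over the 14 arrays 6 gastric epithelial markers read 8.16 to 12.2, with 10.26 to 11.33 for CDH1 and 11.38 to 12.01 for EPCAM. Of 8 stromal, endothelial and blood cell markers, COL1A1 (6.01 to 7.24) and CD68 (6.39 to 8.18) passed the filter. The other 6 did not, with COL1A2 reaching 6.33 and PTPRC and PECAM1 at or below 3.56 and 3.95. SNAI1, which the transgene adds, read 8.80 to 9.85 on the 5 arrays of the Snai1ER line, against 4.76 to 6.19 on the 9 of the parental line. ANGPTL4 lay between 4.16 and 5.66 on all arrays, below the filter, so the arrays do not check the knockdown. The 2 arrays of TGFβ1 without knockdown lay lower as a whole, with medians of 5.23 and 5.19 against 6.0 to 6.16 on the other 12. The array of hypoxia day 1 with knockdown stood apart from the rest, with an SD of 0.69 over genes around the mean of the remaining arrays. For the other 13 this SD was 0.27 to 0.56.

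**Figure D1:**
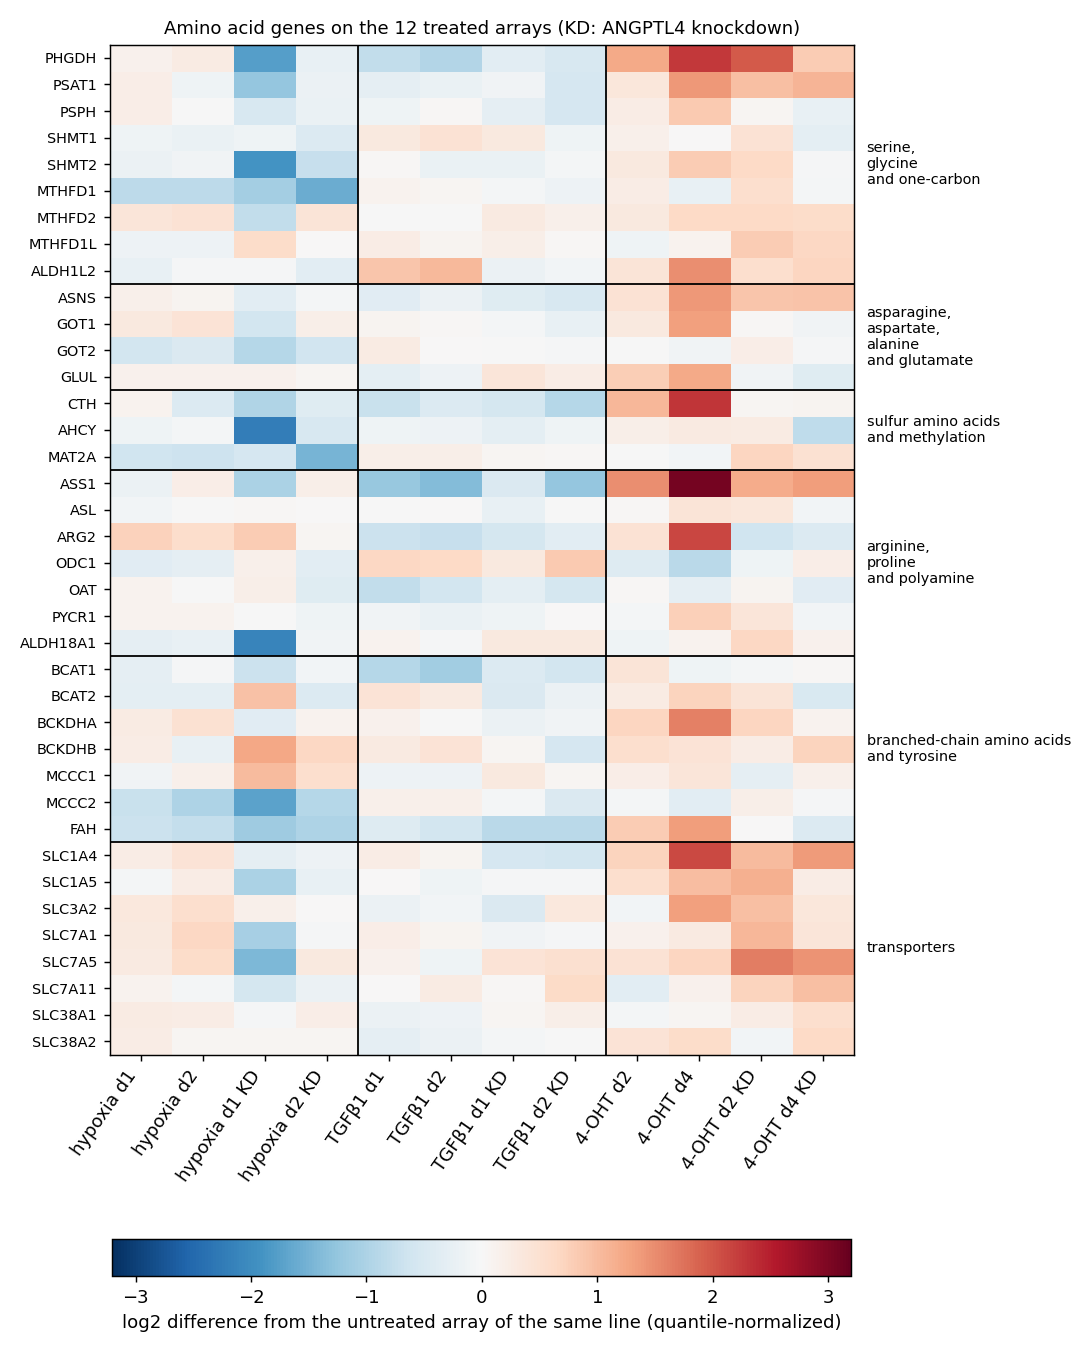
Log2 difference of each of the 38 measured members (rows, grouped by amino acid) from the untreated array of the same line, on the 12 treated arrays (columns; d is the day, KD the ANGPTL4 knockdown), after quantile normalization of all arrays. Red is higher and blue lower than untreated; the red block on day 4 of 4-OHT and the blue column of hypoxia day 1 with knockdown stand out.

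In Snai1ER cells, 4-OHT raised amino acid genes of every one of the 6 groups. Serine synthesis (PHGDH), cysteine synthesis (CTH), arginine synthesis (ASS1), glutamine synthesis (GLUL), branched-chain and tyrosine breakdown (BCKDHA, FAH) and a neutral amino acid transporter (SLC1A4) rose at both times. Of the 36 members, 7 rose and 0 fell, where 2.3% of all genes rose and 1.19% fell. The median difference over the members was 0.50 against 0.00 over all genes. Both times were set against the same untreated array, so they are not independent of it. Whether fewer cells carried an RNA or each cell carried less cannot be told apart in such bulk samples. On day 4 alone, 20 members were at least 1.5-fold higher and 1 was lower, where 9.24% of all genes were higher and 11.5% lower.

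Serine and one-carbon enzymes differed in extent. PHGDH, the first enzyme of serine synthesis from glycolysis, stood at 7.92 untreated, 9.16 on day 2 and 10.15 on day 4, and at 9.91 and 8.74 with knockdown. It was 2.36-fold above untreated on day 2 and 4.69-fold above it on day 4. With knockdown it was above the array without knockdown on day 2 and below it on day 4. PSAT1, the next enzyme, was 8.42 untreated, 8.81 and 9.75 on 4-OHT, and 9.36 and 9.53 with knockdown. PSPH, which completes serine, was 7.37 untreated, 7.63 and 8.14 on 4-OHT, and 7.47 and 7.16 with knockdown. Both were at least 1.5-fold higher than untreated on day 4 alone, by 1.34 and 0.77.

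SHMT1 and SHMT2, the cytosolic and mitochondrial enzymes that turn serine into glycine, did not move alike. On day 4 of 4-OHT SHMT2 differed from untreated by 0.78 and SHMT1 by 0.01. SHMT2 read 9.42 untreated, 9.72 and 10.20 on 4-OHT and 10.08 and 9.42 with knockdown, and SHMT1 ran from 6.31 to 7.04 on the 5 Snai1ER arrays. Among the folate enzymes, mitochondrial MTHFD2 differed by 0.34 and 0.68, cytosolic MTHFD1 by 0.26 and -0.29, and mitochondrial MTHFD1L by -0.11 and 0.03. MTHFD2 was the only one of these 3 that was 1.5-fold higher on day 4, at 11.54 against 10.86 untreated. Its 2 probe sets were averaged.

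Glutamine, asparagine and cytosolic aspartate enzymes were above untreated at both times of 4-OHT, and of them GLUL passed the rule. GLUL, which makes glutamine from glutamate, was 7.16 untreated, 7.99 on day 2 and 8.32 on day 4, and it rose by 0.83 and 1.16. With knockdown it was 7.10 and 6.83, close to the untreated level on day 2 and below it on day 4. ASNS, which makes asparagine, was 9.54 untreated, 9.98 and 10.92 on 4-OHT, and 10.46 at both times with knockdown. GOT1, the cytosolic aspartate aminotransferase, was 10.47 untreated, 10.80 and 11.84 on 4-OHT, and 10.58 and 10.38 with knockdown. Its mitochondrial counterpart GOT2 lay between 9.90 and 10.30 on all 5 arrays. On day 4 GOT1 differed from untreated by 1.37 and GOT2 by -0.16.

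CTH, which releases cysteine from cystathionine, was the 1 of 3 measured sulfur genes that rose. Its levels were 6.19 untreated, 7.24 on day 2 and 8.36 on day 4, which is 4.52-fold on day 4. With knockdown they were 6.29 and 6.34, within 0.15 of untreated. MAT2A makes the methyl donor S-adenosylmethionine, and AHCY breaks down S-adenosylhomocysteine, which methylation leaves behind. AHCY and MAT2A differed from untreated by at most 0.23 in size on 4-OHT without knockdown.

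ASS1, the enzyme that joins citrulline and aspartate on the way to arginine, had the largest rise of the 36 members. It stood at 7.54 untreated, 9.08 on day 2 and 10.63 on day 4, a rise of 2.90-fold and then 8.48-fold. With knockdown it was 8.75 and 8.92, still above untreated. ASL, the next step to arginine, was between 6.78 and 7.21 on the 5 arrays. ARG2, the mitochondrial arginase that breaks arginine down, was 8.34 untreated, 8.83 on day 2 and 10.47 on day 4, so only day 4 passed 1.5-fold, at 4.38-fold. With knockdown ARG2 was 7.72 and 7.89, below untreated at both times. PYCR1, the last step of proline synthesis, was 7.13 untreated, 7.07 and 7.84 on 4-OHT, and 7.55 and 7.07 with knockdown.

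ODC1, the first enzyme of polyamine synthesis, ran the other way. Its levels were 12.53 untreated, 12.13 on day 2 and 11.69 on day 4, and 12.51 and 12.78 with knockdown. It was the 1 member lower by 1.5-fold on day 4, by 0.83, and the difference on day 2 (-0.39) was smaller than that. OAT and ALDH18A1, which handle ornithine and the proline precursor, stayed within 0.30 of untreated without knockdown.

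In branched-chain and tyrosine breakdown, BCKDHA and FAH rose. BCKDHA, a subunit of the branched-chain ketoacid dehydrogenase, was 6.01 untreated, 6.66 and 7.52 on 4-OHT, and 6.72 and 6.18 with knockdown. BCKDHB, a second subunit of the same complex, differed by 0.55 and 0.41 and was not called. FAH, the last enzyme of tyrosine breakdown, was 7.84 untreated, 8.70 and 9.14 on 4-OHT, and 7.88 and 7.42 with knockdown. BCAT2, the mitochondrial aminotransferase of this pathway, was 6.92 untreated, 7.21 and 7.57 on 4-OHT, and 7.37 and 6.52 with knockdown. MCCC1 and MCCC2, the subunits of the leucine-degrading carboxylase, differed from untreated by 0.21 and 0.32 and by -0.03 and -0.39.

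Of the 8 transporters 1 rose at both times, and 5 were at least 1.5-fold higher on day 4. SLC1A4, a neutral amino acid transporter, was 6.23 untreated, 6.93 and 8.25 on 4-OHT, which is 4.04-fold on day 4, and 7.26 and 7.56 with knockdown. Its paralog SLC1A5, a glutamine carrier, was 7.62 untreated, 8.16 and 8.55 on 4-OHT, and 8.80 and 7.89 with knockdown. SLC3A2, the chain that carries SLC7A5 and SLC7A11 to the membrane, was 9.17 untreated, 9.10 and 10.46 on 4-OHT, and 10.16 and 9.56 with knockdown. SLC3A2 was below untreated on day 2 and then differed by 1.29 on day 4. SLC7A5, the large neutral amino acid exchanger, was 8.67 untreated, 9.15 and 9.32 on 4-OHT, and SLC7A11, the cystine carrier, was 11.09 untreated, 10.77 and 11.26. SLC38A2 differed by 0.43 and 0.63, SLC38A1 by -0.06 and 0.09, and the cationic transporter SLC7A1 by 0.13 and 0.21.

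**Figure D2:**
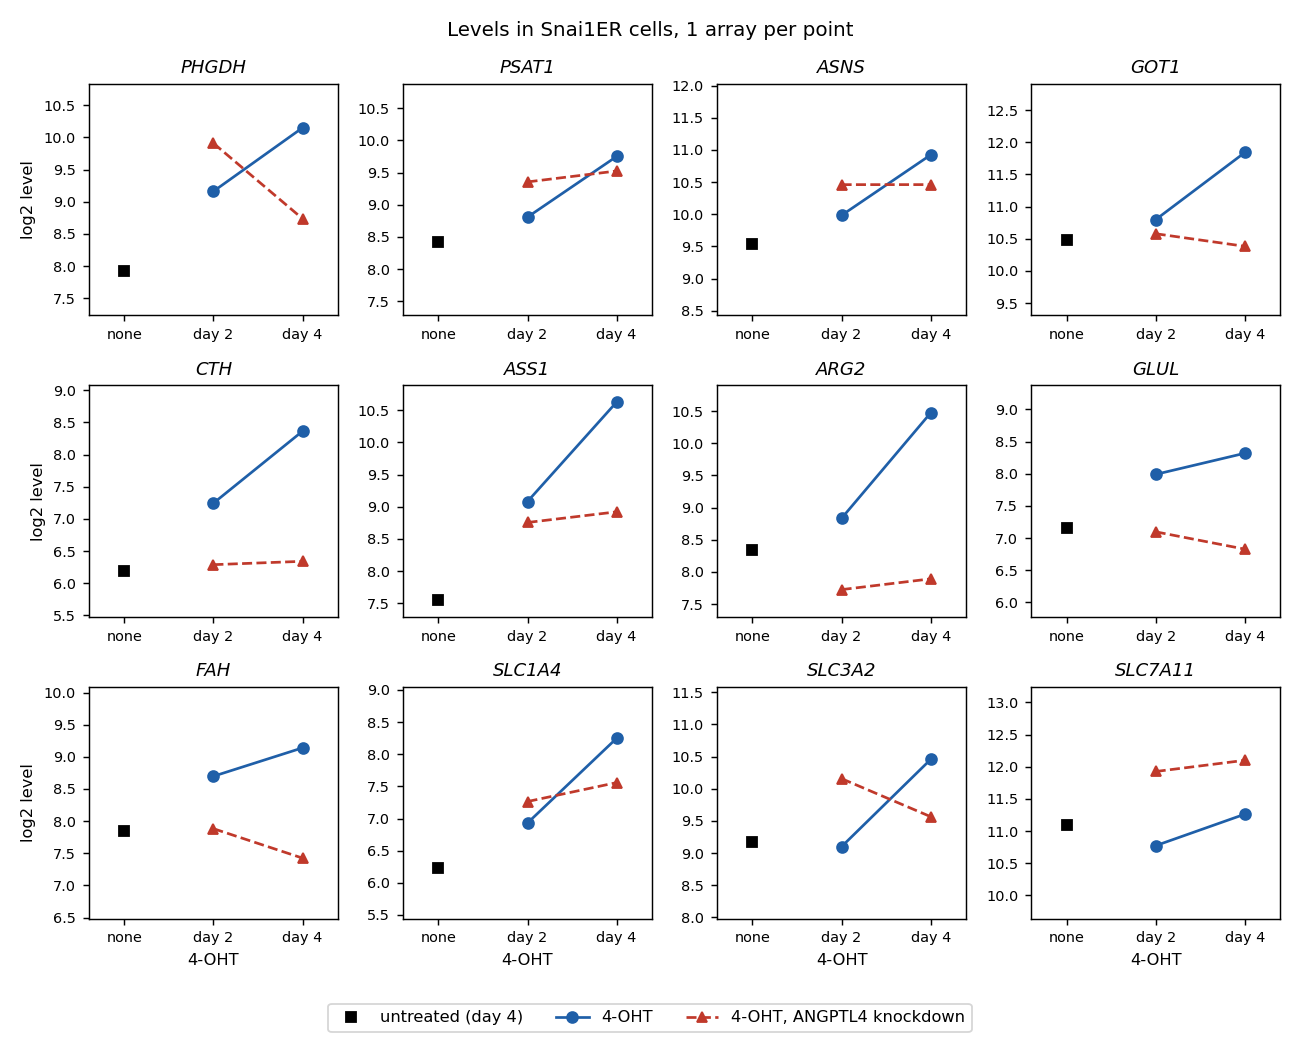
Log2 levels of 12 members on the 5 Snai1ER arrays, 1 array per point: untreated on day 4 (square), 4-OHT without knockdown (circles) and with ANGPTL4 knockdown (triangles); each panel spans the same height in log2 units. Without knockdown all 12 shown were higher on day 4 than on day 2, while some not shown, such as ODC1 and MTHFD1, were lower. With knockdown GLUL, CTH, ARG2 and FAH were at least 1.5-fold lower than without it at both times. GOT1 and ASS1 were also lower at both times, but by less than 1.5-fold on day 2.

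The step from day 2 to day 4 of 4-OHT needs no untreated array, but it rests on the same day 4 array as the counts from untreated. The SD of that array around the other arrays was 0.56, and its part in this step was not tested. Of the 36 members, 11 were at least 1.5-fold higher on day 4 than on day 2 and 0 were lower, where 5.29% of all genes were higher and 11.1% lower. They were PHGDH, PSAT1, ASNS, GOT1, CTH, ASS1, ARG2, PYCR1, BCKDHA, SLC1A4 and SLC3A2, and the median over all members was 0.33 against -0.04 over all genes. In the knockdown arrays the same step held 1 higher member (SLC38A2) and 9 lower ones, where 9.71% of all genes were higher and 11.1% lower, with a median of -0.25. The 9 were PHGDH, SHMT1, SHMT2, MTHFD1, AHCY, BCAT2, SLC1A5, SLC3A2 and SLC7A1.

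Against untreated Snai1ER cells, the 2 knockdown arrays on 4-OHT held 9 members that were higher at both times and 0 lower, where 1.87% of all genes were higher and 4.86% lower. These were PHGDH, PSAT1, MTHFD2, MTHFD1L, ASNS, ASS1, SLC1A4, SLC7A5 and SLC7A11. PHGDH, ASS1 and SLC1A4 are also among the 7 that rose without knockdown, and GLUL, CTH, BCKDHA and FAH are not among the 9.

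The knockdown was then compared with the matching 4-OHT array of the same day. At both times glutamine, cysteine, arginine and tyrosine enzymes were lower with knockdown, and 2 exchangers and a folate enzyme were higher. GLUL fell by 0.89 and 1.49, CTH by 0.96 and 2.02, ARG2 by 1.11 and 2.58, and FAH by 0.81 and 1.71. MTHFD1L rose by 0.91 and 0.65, from 8.76 and 8.91 to 9.68 and 9.56, but missed the threshold on day 4 after quantile normalization (0.55) and with centring (0.54). SLC7A5 rose by 1.21 and 0.82, to 10.36 and 10.14, and SLC7A11 by 1.15 and 0.84, to 11.93 and 12.10. These were 3 higher and 4 lower members, where 2.38% of all genes were higher and 6.77% lower.

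Single days gave opposite balances. On day 2, 9 members were higher and 4 lower with knockdown, where 6.2% of all genes were higher and 14.2% lower, and the median over the members was 0.34. On day 4, 4 were higher and 16 lower, where 15.5% of all genes were higher and 18.6% lower, and the median was -0.32. The medians over all genes were -0.02 and -0.04. Of the 36 members, 15 were above the array without knockdown on day 2 and below it on day 4, and 2 went the opposite way. Such switches were not counted over all genes. SNAI1 RNA also differed within these pairs. It read 9.62 on day 2 and 9.55 on day 4 without knockdown, and 9.85 and 8.80 with knockdown. The part of SNAI1 in these values was not tested.

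PHGDH differed with knockdown by 0.75 on day 2 and -1.41 on day 4, and SLC3A2 by 1.06 and -0.89. SLC1A5 went from 0.65 to -0.66, although its 2 probe sets differed on day 2, at 0.19 and 1.10. ODC1 was higher by 1.09 on day 4 and by 0.38 on day 2. The day 4 array without knockdown enters both this difference and the one from untreated, so a member high on that array is high in one and low in the other. That array had the largest spread around the other arrays (0.56) after the hypoxia array named above, and its part in these values was not tested.

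**Figure D3:**
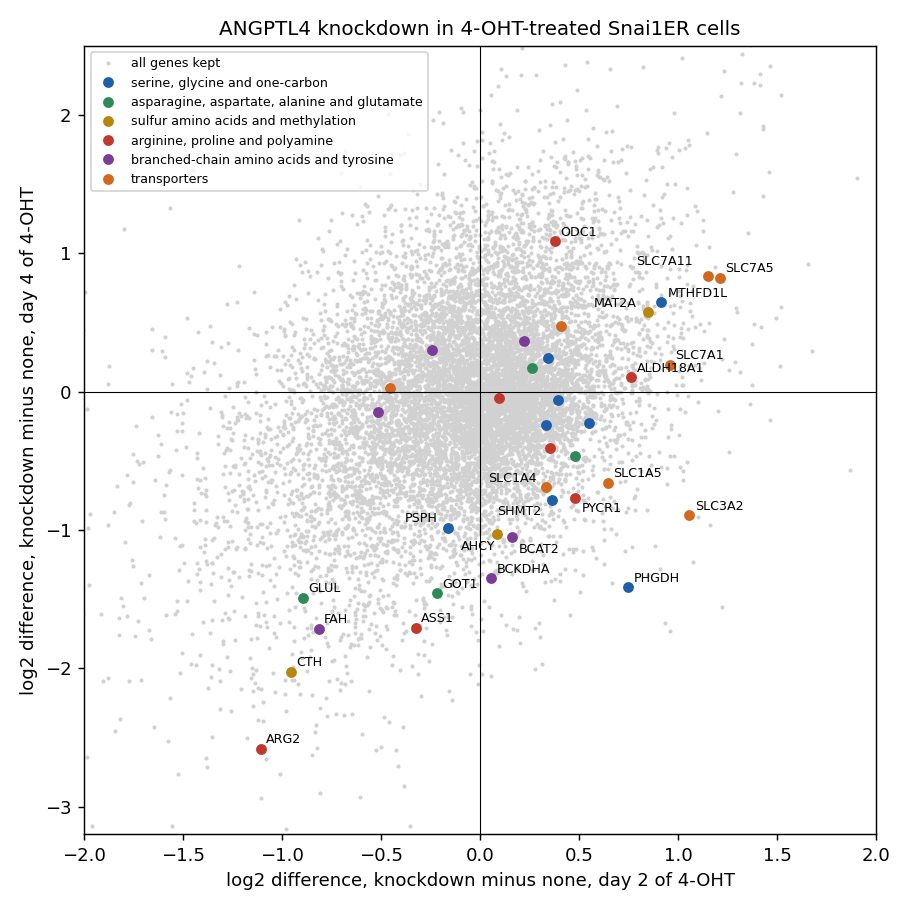
Difference between the arrays with and without ANGPTL4 knockdown on 4-OHT, in log2 units, on day 2 (horizontal) and day 4 (vertical), for 36 members coloured by group and all 11050 genes kept in grey (some lie outside the axes). GLUL, CTH, ARG2 and FAH lie low on both axes, SLC7A5, SLC7A11 and MTHFD1L high on both, and PHGDH and SLC3A2 high on day 2 and low on day 4.

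Hypoxia changed few of these genes. MTHFD1, MCCC2 and FAH fell at both times and 0 of 36 rose, where 1.71% of all genes fell and 2.94% rose. MTHFD1, which interconverts folate one-carbon units in the cytosol, was 9.61 untreated, 8.86 on day 1 and 8.81 on day 2. MCCC2 was 8.44 untreated and then 7.76 and 7.50, and FAH was 8.50 and then 7.86 and 7.79. All 3 were lower than untreated at each time, by 0.64 to 0.93. The median over the members was 0.05 against -0.02 over all genes.

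Some members came near the threshold. MAT2A, which makes S-adenosylmethionine, was 11.37 untreated, 10.82 and 10.70, and passed on day 2 alone. ARG2 was 8.04 untreated, 8.78 and 8.56, and passed on day 1 alone. GOT1 and GOT2 differed in opposite directions, by 0.39 and 0.40 and by -0.51 and -0.47. MTHFD2 was 0.45 and 0.42 above untreated while MTHFD1 was below it, and MTHFD1L differed by -0.15 and -0.16. The 8 transporters all had a mean difference above 0, from 0.05 to 0.48 with a median of 0.32, and none of them was called.

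With ANGPTL4 knockdown under hypoxia, BCKDHB was higher at both times and SLC7A1 lower. BCKDHB was 7.04 and 6.57 without knockdown and 7.83 and 7.46 with it. SLC7A1, which carries arginine and lysine, was 9.96 and 10.22 without and 8.41 and 9.59 with knockdown. These were 1 higher and 1 lower of 36, where 0.434% of all genes were higher and 4.02% lower.

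Day 1 carried most of the difference, and it rests on the array that stands apart. On that day 3 members were higher and 17 lower with knockdown, where 10.8% of all genes were higher and 26% lower. The lowest were AHCY, from 9.35 to 7.20, PHGDH, from 9.33 to 7.32, SHMT2, from 9.46 to 7.59, and SLC7A5, from 9.35 to 7.49. BCAT2, BCKDHB and MCCC1 were the 3 higher members. On day 2 the count was 1 higher (BCKDHB) and 4 lower (MTHFD1, MAT2A, SLC1A4, SLC7A1), where 4.08% of all genes were higher and 9.23% lower. For AHCY, PHGDH and SLC7A5 the day 2 differences were -0.41, -0.43 and -0.25. Of the 36 members, 23 were lower with knockdown at both times by any amount and 4 higher. The same was not counted over all genes, so these 2 counts have no share to stand beside. The part of that array in these values was not tested.

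**Figure D4:**
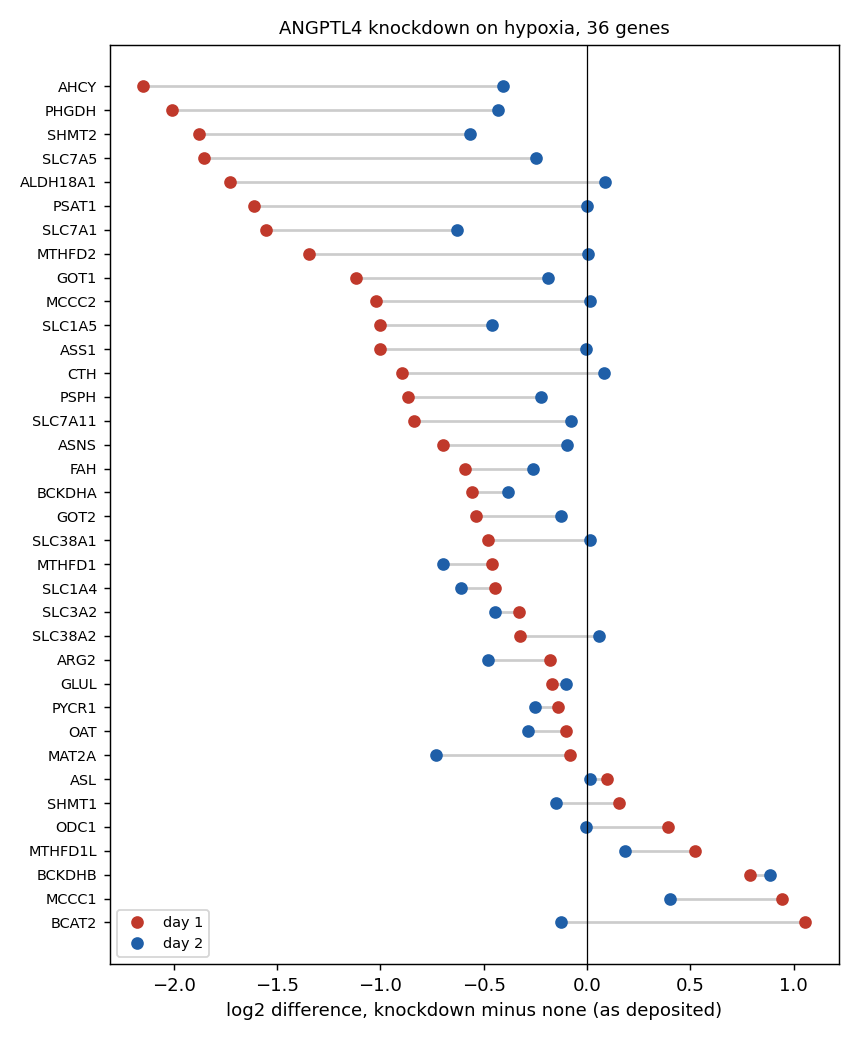
Difference between the hypoxia arrays with and without ANGPTL4 knockdown for 36 members, in log2 units as deposited, on day 1 (red) and day 2 (blue), ordered by day 1. Most day 1 points lie left of 0, down to -2.15 for AHCY, and the day 2 points lie between -0.73 and 0.89.

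For TGFβ1 the direction depended on the scaling, because both arrays without knockdown lay lower as a whole. As deposited, 0 members rose and 9 fell (PHGDH, GLUL, CTH, ASS1, ASL, ARG2, OAT, PYCR1 and FAH), where 0.452% of all genes rose and 32.3% fell. The median was -0.35 over the members and -0.46 over all genes. After quantile normalization 1 member rose and 3 fell, where 2.47% of all genes rose and 3.27% fell, and the medians were -0.03 and 0.01. With each array centred on its own median, 9 members rose and 1 fell, where 22.5% of all genes rose and 1.86% fell, and the medians were 0.47 and 0.35. ASS1 fell on all 3 scales and ODC1 rose on the last 2, while PHGDH and ARG2 fell on the first 2.

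As deposited, ASS1 was 10.62 untreated and 9.20 and 9.06 on TGFβ1, PHGDH was 9.14 and then 8.02 and 7.86, and ARG2 was 8.04 and then 6.80 and 6.70. After quantile normalization the differences were -1.22 and -1.39 for ASS1, -0.79 and -0.94 for PHGDH, and -0.68 and -0.74 for ARG2. ODC1 was 11.66 untreated and 12.04 and 12.11 as deposited, a difference of 0.38 and 0.45, and 0.67 and 0.64 after quantile normalization. OAT, the ornithine aminotransferase, differed by -0.79 and -0.58 on that scale and missed the threshold on day 2. The 2 probe sets of GLUL differed on TGFβ1, with means of -1.36 and -0.31 as deposited. Paralogs had mean differences, after quantile normalization, of -0.09 for SHMT2 and 0.39 for SHMT1, 0.06 for GOT1 and 0.14 for GOT2, and 0.16 for SLC1A4 and -0.06 for SLC1A5. Hypoxia and TGFβ1 share the untreated array.

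The arrays with knockdown on TGFβ1 did not lie lower. Against untreated they held 0 members that rose and 1 that fell, where 1.26% of all genes rose and 3.08% fell. It was FAH, at 7.67 and 7.68 against 8.50. ODC1 was 12.09 and 12.65 and ASS1 10.28 and 9.50 there. Within TGFβ1, as deposited, 5 members were higher with knockdown (PHGDH, GLUL, ARG2, PYCR1 and SLC7A5) and 0 lower, where 27.6% of all genes were higher and 0.751% lower. After quantile normalization 0 were higher and 1 lower, SLC1A4 (-0.78 and -0.66), where 1.36% of all genes were higher and 4.48% lower.

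**Figure D5:**
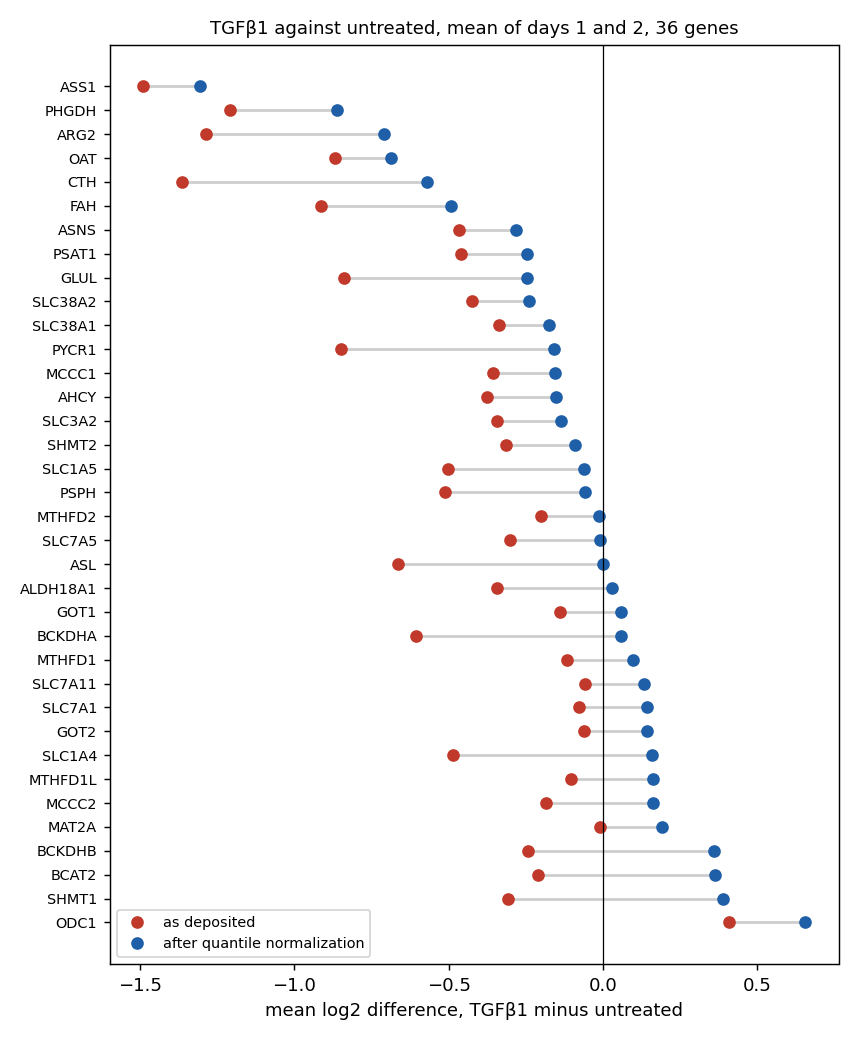
Mean log2 difference of TGFβ1 days 1 and 2 from the untreated array for 36 members, as deposited (red) and after quantile normalization (blue), ordered by the latter. Quantile normalization moved every member to the right; ASS1 stayed lowest at -1.30 and ODC1 highest at 0.66.

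Across all 6 pairs of arrays with and without knockdown, 0 of 36 members passed limma's test with adjustment over all genes, where 0.127% of all genes did. At an unadjusted p under 0.05 there were 2 members, against 16.7% of all genes. MTHFD1L was higher with knockdown in 6 of 6 pairs, by 0.46 (SE 0.18, limma adjusted p = 0.252). This includes the TGFβ1 pairs, whose arrays without knockdown lay lower, and after quantile normalization it was higher in 4 pairs and lower in the 2 of TGFβ1. FAH was lower in 5 of 6 pairs, by 0.53 on the log2 scale in the mean (SE 0.24, limma adjusted p = 0.288). On the quantile-normalized scale FAH was lower in 6 of 6 pairs (-0.66, SE 0.20, limma adjusted p = 0.143). PSPH, GOT1 and BCKDHA were also lower in 6 of 6 pairs on that scale. As deposited they were lower in 5, 4 and 3 of the 6 pairs. Genes lower in all pairs were not counted over all genes. After quantile normalization 0.878% of all genes passed and 0 members did, with 8 members at an unadjusted p under 0.05 against 19.0% of all genes.

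The knockdown effect of the 4 parental pairs was set against that of the 2 Snai1ER pairs in the same fit. Line and treatment cannot be told apart here, since 4-OHT was given to Snai1ER cells alone. In this test 0 of 36 members passed, where 0.0452% of all genes did, and 7 were at an unadjusted p under 0.05 against 8.71% of all genes. ARG2 had the lowest adjusted p, with an effect in Snai1ER pairs lower by 2.10 on the log2 scale (SE 0.52, limma adjusted p = 0.181). Its differences were -1.11 and -2.58 on 4-OHT, -0.18 and -0.48 on hypoxia and 0.68 and 1.01 on TGFβ1. The last 2 depended on the scaling, at 0.12 and 0.41 after quantile normalization and -0.17 and 0.13 with centring. GLUL and CTH followed, at adjusted p = 0.314 and 0.400 by limma. Without the hypoxia day 1 pair, 3 members passed, ARG2, CTH and GLUL, and after quantile normalization none did with or without that pair.

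The 2 lines differed before treatment, as far as 1 array each can show and with the days unequal. ASS1 was 10.62 in untreated parental cells and 7.54 in untreated Snai1ER cells, which is 8.43-fold lower, and day 4 of 4-OHT brought it to 10.63. PSAT1 was 9.67 and 8.42, PHGDH 9.14 and 7.92, ASNS 10.33 and 9.54, and BCKDHA 6.83 and 6.01. In each of these 5 genes the untreated Snai1ER array was lower. GLUL, CTH, FAH and SLC1A4, which also rose on 4-OHT, differed there by -0.49, -0.60, -0.66 and -0.54. ODC1 (11.66 and 12.53) and MTHFD1 (9.61 and 10.29) were higher in the untreated Snai1ER line. The rises on 4-OHT were counted from these lower levels: on day 4 ASS1 stood 0.01 above the untreated parental array. The other 6 that rose stood further above it on day 4, by 1.01 for PHGDH, 0.67 for GLUL, 1.58 for CTH, 0.70 for BCKDHA, 0.64 for FAH and 1.47 for SLC1A4. On day 2 of 4-OHT, ASS1 (9.08) and BCKDHA (6.66) were below the untreated parental array. PHGDH was then 9.16 against 9.14 on that array, GLUL 7.99 against 7.65, and CTH 7.24 against 6.78. FAH was 8.70 against 8.50, and SLC1A4 6.93 against 6.78.

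ALDH1L2 and BCAT1, below the filter, were dim on nearly all arrays. ALDH1L2, a mitochondrial folate dehydrogenase, was 4.80 untreated, 5.14 and 6.19 on 4-OHT and 5.31 and 5.55 with knockdown, and 4.50 to 4.93 on the 9 parental arrays. BCAT1, the cytosolic branched-chain aminotransferase, was 4.91 to 5.40 on the Snai1ER arrays, 5.16 to 5.68 on the untreated and hypoxia arrays and 3.69 to 5.30 on TGFβ1. Its paralog BCAT2 was 6.64 to 6.96 on the TGFβ1 arrays and 6.66 to 7.81 on the untreated and hypoxia arrays.

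ATF4 itself was 9.03 in untreated Snai1ER cells, 9.24 and 9.64 on 4-OHT, and 9.48 and 9.02 with knockdown. The arrays measure its RNA, and its protein was not analysed here. Of 15 genes listed as ATF4 and its targets outside amino acid metabolism, 13 passed the filter. This list was chosen with earlier results of these data known, so its counts describe and do not test. Of the 13, 7 rose on 4-OHT and 0 fell, where 2.3% of all genes rose and 1.19% fell, with a median of 1.35. DDIT4, which restrains mTORC1 (2.33 and 3.39), NUPR1, a stress-induced cofactor (1.11 and 3.94), DDIT3, the factor CHOP (1.19 and 3.76), and CHAC1, which degrades glutathione (1.06 and 2.37), differed most. With knockdown on 4-OHT, 5 of the 13 were lower at both times and 0 higher, where 6.77% and 2.38% of all genes were, with differences of -1.08 and -4.28 for NUPR1. On hypoxia 3 of the 13 rose (ATF3, DDIT3 and PPP1R15A), where 2.94% of all genes did. As deposited, 7 fell on TGFβ1, where 32.3% of all genes did, and after quantile normalization 1 did (VEGFA), where 3.27% did.

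Other amino acid genes outside the 41 were counted by the same rule. Of 19 aminoacyl-tRNA synthetases, which load amino acids onto tRNA, 1 rose (AARS1, by 0.59 and 1.10) and 0 fell, and 6 were at least 1.5-fold higher on day 4, where 9.24% of all genes were. With knockdown on hypoxia day 1, on the array that stands apart, 12 of the 19 were lower and 0 higher, where 26% of all genes were lower and 10.8% higher. Of 31 other amino acid enzymes 0 rose and 0 fell on 4-OHT, with a median of 0.15. Of 16 other transporters 2 rose, the glutamate carrier SLC1A3 (0.99 and 0.92) and the glycine carrier SLC6A9 (0.59 and 1.21). On 4-OHT without knockdown 0 of 6 epithelial markers rose or fell, and the 2 kept stromal and blood markers did neither.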

How the data were processed

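RNA of 14 samples was amplified with the NuGEN system and hybridised to GeneChip Human Gene 1.0 ST arrays. The authors processed them with RMA in Partek, according to the submitters' processing notes (versions not given in the sources used here), and deposited log2 values. They were used as deposited; scanner files were not used here. Of 33297 probe sets, 19460 carried 1 gene symbol. Symbols were updated by gene ID, which matched 19429, and probe sets of a gene were averaged, giving 18417 genes. Genes with a mean at or above the 40th percentile (log2 5.90) were kept. Probe sets can share sequence with paralogs and pseudogenes, as for ASS1.

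Samples were grouped by treatment, time, line and knockdown in their labels. Treated arrays were set against the untreated array of their line, and knockdown arrays against their partner, with a rule of 1.5-fold at both times. Knockdown was tested in limma (lmFit, eBayes) on the 12 treated arrays, with the 6 pairs of the design as a block (5 residual degrees of freedom). An interaction term compared the lines. Adjustment was by Benjamini-Hochberg over 11050 genes, at a threshold of 0.05. The fit was tested on simulated data. The number of arrays limits the precision, no depth applies, and nothing says whether samples came from separate cultures.

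The members and lists were chosen with earlier results of these data known. Values are given for members that passed the size rule, lay below the filter or form paralogous pairs, on the arrays compared, and for ATF4, SNAI1, ANGPTL4 and up to 4 of the most changed genes of each other list. Others were named after their values were seen. Motifs were counted in RefSeq promoters (GRCh38.p14) in Python 3.11.15. All else was computed with limma 3.58.1 in R 4.3.3. Alternatives covered array scaling, the probe set used, the filter, a 2-fold rule, single times, a fit with no pair block, array weights, a trend of the variance with the mean, leaving out pairs and, chosen after seeing the data, arrays with knockdown against untreated and the scaling of the step from day 2 to day 4 of 4-OHT.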

Additional observations from a re-analysis of the deposited data

Results flagged for a closer look

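MCCC1, a subunit of the carboxylase that degrades leucine, was higher with ANGPTL4 knockdown in each of the 4 parental pairs and lower in both Snai1ER pairs. The mean difference was 0.67 in the parental pairs and -0.33 in the Snai1ER pairs, on the log2 scale as deposited. The TGFβ1 pairs among them rest on arrays that lay lower as a whole, and the scaling mattered there. With each array centred MCCC1 differed in these by -0.05 and -0.36, so that 2 of the 4 parental pairs were higher. After quantile normalization it read 9.85 and 9.86 on TGFβ1 without knockdown and 10.32 and 10.08 with it. On that scale it was higher in 4 of the 6 pairs and lower in 2. The opposite direction in the lines as deposited drew attention to it, and in the test of the difference between lines it did not pass (-1.0, SE 0.37, limma adjusted p = 0.481). Line and treatment cannot be told apart in this difference.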

How the results depend on the processing

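The number of arrays limits every result, and the counts below depend on the size and the time points required; causes were not tested. With a 2-fold rule the members that changed numbered 0 on hypoxia, 4 on TGFβ1 (all lower) and 3 on 4-OHT (all higher). Those shifted by knockdown numbered 0, 0 and 1 (lower). The 4 on TGFβ1 rest on the arrays that lay lower as a whole, and shares of all genes are not given for this rule. On single days hypoxia changed 5 members (day 2) and 4-OHT 21 (day 4). Knockdown shifted 20 and 5 on hypoxia, and 11 and 11 on TGFβ1, where all were higher as deposited. On 4-OHT it shifted 13 (9 higher, 4 lower, where 3 and 4 passed at both times) and 20. Shares of all genes stand above for knockdown on single days of hypoxia and 4-OHT and for day 4 of 4-OHT. For the other single days they are not given. With each array centred on its median, TGFβ1 changed 10 members (9 higher, 1 lower, the reverse of the deposited balance), and knockdown shifted 10 on TGFβ1 (0 higher, 10 lower, also the reverse) and 5 on hypoxia. Quantile normalization gave 4 on TGFβ1 and 1 shifted by knockdown there (lower, the reverse). With the knockdown arrays against untreated, 7 members differed on hypoxia and 1 on TGFβ1.

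In limma's test across the 6 pairs, centring gave 3 members (FAH, GOT1 and PSPH, lowest adjusted p = 0.025) among 1191 of all genes, and without the pair block there were 0. In the test between lines, array weights gave 6 members among 1268 of all genes, and leaving out pairs in turn gave 0 to 3, the 3 being without the hypoxia day 1 pair. Over all genes the first test called 14 as reported, 97 after quantile normalization, 92 without the pair block, 35 without the filter, 38 with array weights, 28 with a variance trend, 2 without the TGFβ1 pairs, and 0 to 427 with a pair left out (427 without the hypoxia day 1 pair, after quantile normalization). The test between lines called 5 as reported, 14 without the filter, 11 without the pair block, 9 with a variance trend, 0 with centring, quantile normalization or without the TGFβ1 pairs, and 0 to 127 with a pair left out (127 without the hypoxia day 1 pair). Of the other values recomputed, each result counted once per alternative, 65 counts stayed within 1.5 times and 115 single-gene values kept their direction and call, while PHGDH and ARG2 on TGFβ1 lost their call with centring (-0.39 and -0.47).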
